A study of Mus musculus with 12 samples.

Results

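The 10 leukocyte integrin genes Itgax, Itgam, Itgal, Itga4, Itgae, Itgb1, Itgb2, Itgb7, Itga2b and Itgb3 were followed through the culture of mouse bone-marrow monocytes with GM-CSF and IL-4. They were chosen by name, as genes of integrins that leukocytes and platelets carry, out of 47643 gene IDs in the count files, and each symbol matched 1 ID. All 10 passed the filter on low counts and were among the 14034 genes tested. RNA sequencing of poly(A) RNA covered 12 libraries in 6 groups of 2. The groups were sorted monocytes of wild-type (WT) mice, sorted monocytes of Nr4a3 knockout (KO) mice, and monocytes of each genotype kept for 1 or 2 days with both cytokines. All mice had a C57BL/6 background, every library came from bone marrow, and the 4 cultured groups all received GM-CSF and IL-4. No cultured group without the cytokines is among the libraries, so time in culture and cytokine treatment cannot be told apart. The labels give no age, no number of mice per library and no detail of the deleted allele.

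Integrins are cell-surface receptors made of an alpha and a beta chain, which link the outside of a cell to its actin skeleton and bind other cells or matrix. Leukocytes use beta 2 integrins (CD11a, CD11b or CD11c with CD18) to bind ICAMs and complement, and the CD49d chain with beta 1 or beta 7 to bind VCAM-1, fibronectin or MAdCAM-1. CD103, which pairs with beta 7, binds E-cadherin, and CD11c and CD103 are standard surface markers of dendritic cells. Ligand binding requires activation from inside the cell through Rap1, talin and kindlin.

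Depth ran from 5905266 to 18447405 reads in genes per library, and levels are counts-per-million values after TMM scaling (CPM). Same-numbered WT and KO libraries of a stage are taken as the same experiment, from the dates in the deposited file names. Monocytes and day 1 shared their experiments, whereas day 2 came from other experiments, so that for day 2 the stage and the experiment cannot be told apart. The deposited file names give 16 hours for both day 1 replicate 2 libraries, which the labels call 1 day. Nr4a3 held 4 and 0 reads in WT monocytes and 13 and 0 reads in KO monocytes. It stood at 1286 and 1357 CPM in WT day 2 and at 39.0 and 19.3 CPM in KO day 2. At day 1 it stood at 16.5 and 10.4 CPM in WT, at 6.58 CPM in the library labelled KO day 1 replicate 1 and at 0 reads in KO day 1 replicate 2, so the label of the former is in doubt for every KO day 1 value below. Xist stood at 885 and 793 CPM in the day 2 replicate 1 libraries and at most 1.01 CPM in the others, so day 2 also differs from the other stages in the sex of 1 replicate. Replicates differed most in WT monocytes and KO day 1, with a chi-square per degree of freedom of 175 and 133 against 34.7 to 66.3 in the other groups. Neutrophil markers summed to 3889 CPM in WT monocytes replicate 2 and to at most 1949 CPM in any other library. That library and the library labelled KO day 1 replicate 1 are taken as standing apart, and calls lost without them are named beside each gene. The monocyte markers summed to between 23583 and 54058 CPM in sorted cells, most of it Lyz2, and to between 1537 and 15408 CPM in culture. Fcgr3 of that list went the other way at day 1, from 285 to 572 CPM in sorted cells to between 698 and 1165 CPM. Ccr2 at day 1, Csf1r at both days, and Cd14 and Fcgr3 at day 2 overlapped their values in sorted cells. The dendritic cell markers went in sum from at most 852 CPM to at least 7128 CPM, with Xcr1 never above 0.567 CPM. Most of that sum in culture came from Cd74, H2-Ab1 and H2-Eb1. Irf8 of that list went the other way, from 455 to 562 CPM in sorted cells to between 7.52 and 263 CPM in culture. Flt3 and Dpp4 also fell at day 1, from at least 9.85 and 24.8 CPM in sorted cells to at most 0.979 and 3.06 CPM. At day 2 Flt3, Dpp4 and Cd209a overlapped their values in sorted cells, as did Ccr7 at day 1 and Clec9a at both days. In such bulk libraries fewer cells of a type and less RNA per cell cannot be told apart.

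Promoter sequences of 6 of the 10 genes were matched in RefSeq (GRCm38.p6): Itgax, Itgam, Itga4, Itgb1, Itgb7 and Itga2b. The 250 bases before the start are printed for Itgax, the gene with the highest fitted rise at day 1, for its chromosome 7 neighbour Itgam, and for Itgb7, the gene with the lowest fitted value at day 1 in WT. They are chr7:128129300-128129549 (plus strand), chr7:128062390-128062639 (plus strand) and chr15:102231936-102232185 (minus strand), printed 5′ to 3′ on the gene's strand. Starts here are those of RefSeq. The gene coordinates given below are those of GENCODE, and the windows of Itgax and Itgb7 reach a few bases into them. Capitals mark every match, on either strand, to the letters searched.

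Itgax: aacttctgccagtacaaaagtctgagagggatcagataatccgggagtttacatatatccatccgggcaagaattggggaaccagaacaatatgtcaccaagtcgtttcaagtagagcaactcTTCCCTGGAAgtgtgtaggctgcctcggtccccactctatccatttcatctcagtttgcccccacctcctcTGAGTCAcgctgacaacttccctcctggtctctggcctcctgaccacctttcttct

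Itgam: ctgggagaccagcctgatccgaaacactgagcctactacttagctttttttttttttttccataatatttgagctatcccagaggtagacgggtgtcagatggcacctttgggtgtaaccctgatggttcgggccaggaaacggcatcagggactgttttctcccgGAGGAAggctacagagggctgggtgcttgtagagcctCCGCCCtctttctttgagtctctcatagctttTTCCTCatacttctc

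Itgb7: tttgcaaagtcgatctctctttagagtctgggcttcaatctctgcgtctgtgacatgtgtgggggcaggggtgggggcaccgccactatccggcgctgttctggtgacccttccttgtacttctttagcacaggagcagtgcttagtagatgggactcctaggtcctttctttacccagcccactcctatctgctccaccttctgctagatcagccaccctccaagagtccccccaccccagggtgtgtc

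The searched letters were GAGGAA (a PU.1-type site), TGTGGT (RUNX), TGANTCA (AP-1), GGGCGG (Sp1), AAAGGTCA (the NBRE bound by NR4A receptors), and TTC and GAA with 3 or 4 bases between them (STAT). No 2 of the matches overlapped. Itgax held AP-1 letters from 56 to 50 bases before its start and the STAT letters with 4 bases between them from 127 to 118 bases before it. Across 32851 mouse promoters of this length, the AP-1 letters occur in 6.75% and that STAT form in 5.85%. Itgam held PU.1-type letters at 2 places and Sp1 letters at 1, which occur in 23.3% and 32.7% of promoters. The Itgb7 window held none of the 7 sets of letters. The NBRE letters occur in 1.34% of all promoters and in 0 of the 6 integrin windows, the STAT form with 3 bases between in 7.02% and 0 of the 6, and the RUNX letters in 14.0% and 1 of the 6 (Itga4). These are matches of letters and say nothing about binding.

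**Figure D1:**
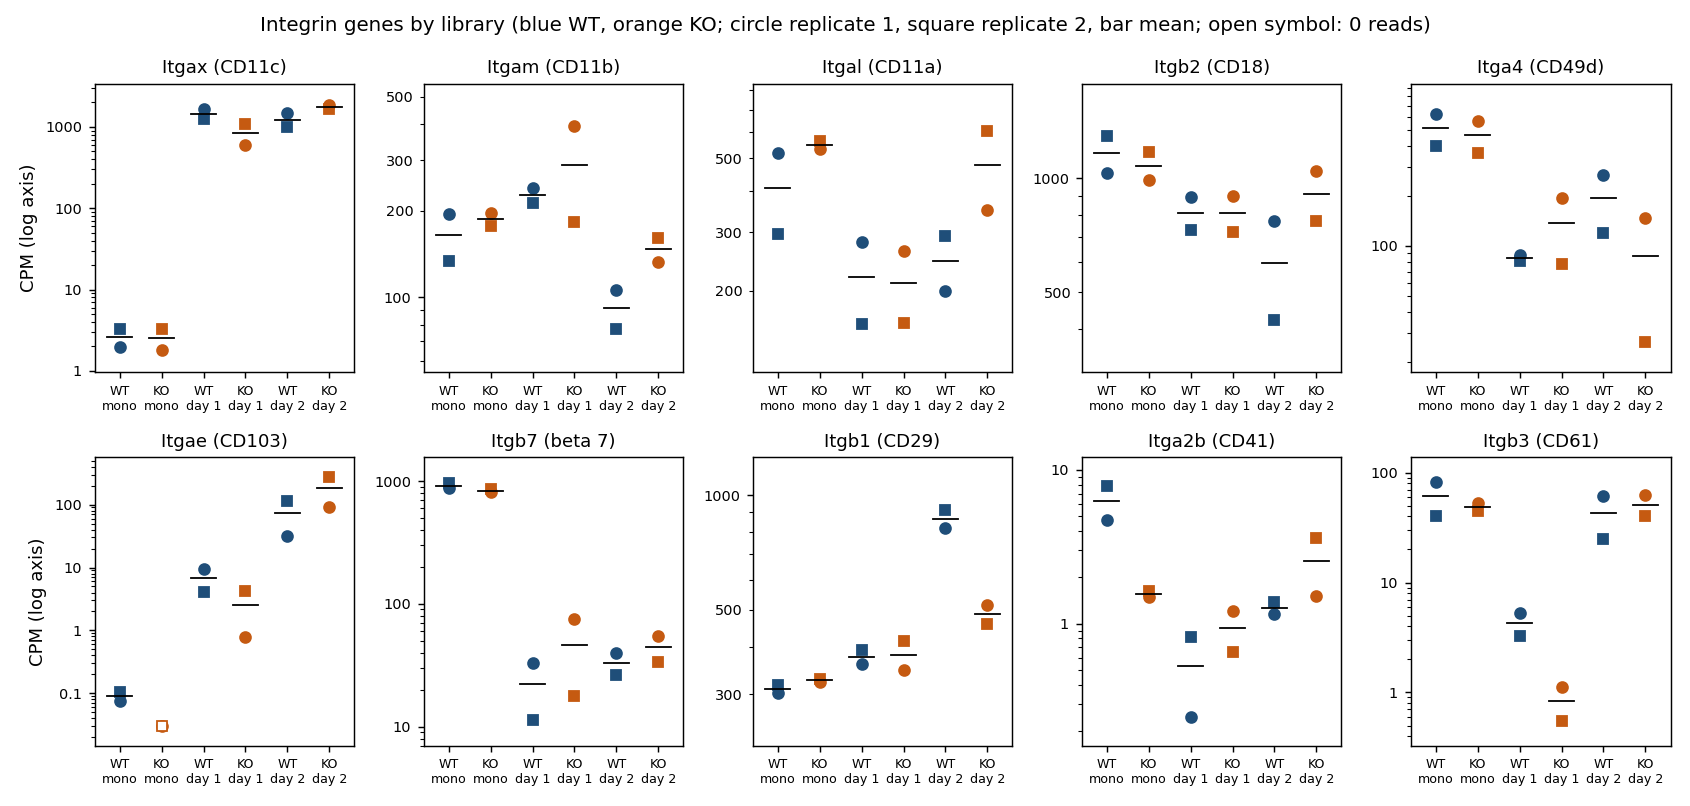
Level of each integrin gene in every library, in CPM on a log axis, by genotype and stage. Circles are replicate 1, squares replicate 2, black bars the mean of the 2 libraries, and open symbols mark 0 reads drawn at the foot of the axis. Itgax and Itgae lie higher, and Itgb7 lower, in all 8 cultured libraries than in all 4 monocyte libraries, while Itgb3 falls at day 1 and is back near its monocyte level at day 2.

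Culture changed the integrin genes as follows, by edgeR's quasi-likelihood test with Benjamini-Hochberg adjustment over all genes and a threshold of 0.05. In WT cells at day 1, 6 of the 10 genes passed, with Itgax and Itgae higher and Itga4, Itgb7, Itga2b and Itgb3 lower. Over all genes 21.5% passed (11.4% higher and 10.1% lower). In WT cells at day 2 against monocytes, 4 of 10 passed, with Itgax, Itgae and Itgb1 higher and Itgb7 lower, against 22.6% of all genes (12.7% higher and 9.89% lower). In KO cells 4 of 10 passed at day 1, with Itgax and Itgae higher and Itgb7 and Itgb3 lower, against 13.8% of all genes (7.70% higher and 6.14% lower). At day 2 in KO cells 4 of 10 passed, with Itgax and Itgae higher and Itga4 and Itgb7 lower, against 17.5% (9.95% higher and 7.57% lower). Between day 2 and day 1, Itgae, Itgb1 and Itgb3 rose in WT cells, against 8.19% of all genes, and Itgae and Itgb3 rose in KO cells, against 2.05%. The days of a genotype share their monocyte or day 1 libraries, so these counts are not independent of each other. The median log2 change over the 10 genes was -0.71 at WT day 1, -0.79 at WT day 2, -0.58 at KO day 1 and -0.07 at KO day 2, each against monocytes. Over all genes tested the same medians were 0.06, 0.09, 0.11 and 0.08.

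**Figure D2:**
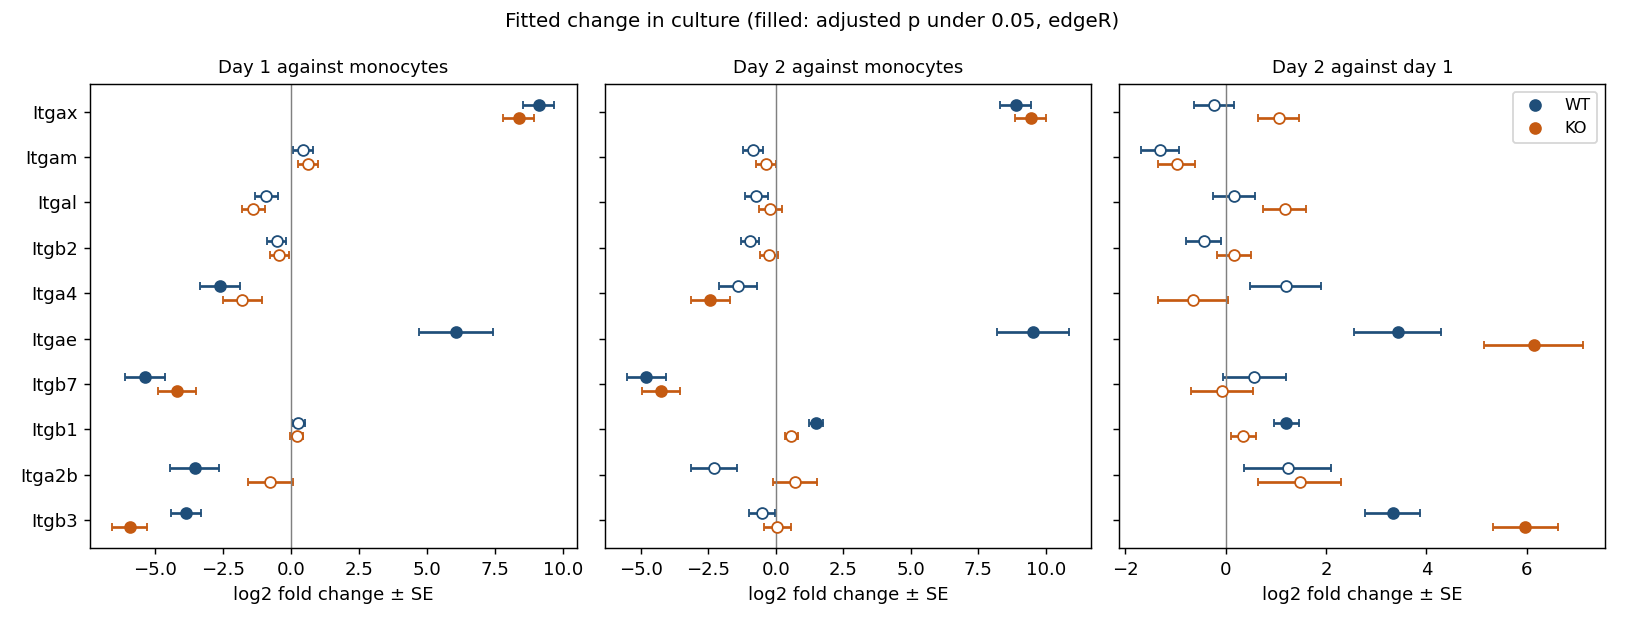
Fitted log2 fold change with its standard error for each integrin gene, WT in blue and KO in orange, for day 1 against monocytes, day 2 against monocytes and day 2 against day 1. Filled points passed the edgeR adjusted p threshold of 0.05. Itgae is left out for KO against KO monocytes, where the monocytes held 0 reads. Itgax lies between 8.38 and 9.43 in each comparison with monocytes, and Itgb3 moves to the left at day 1 and to the right between day 1 and day 2.

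Itgax encodes the CD11c alpha chain (ENSMUSG00000030789.9, chr7:128129547-128150657 in GRCm38, plus strand). It stood at 1.99 and 3.27 CPM in WT monocytes and at 1.78 and 3.26 CPM in KO monocytes. In culture it stood at 1641 and 1263 CPM in WT day 1, at 1476 and 986 CPM in WT day 2 and at 1851 and 1652 CPM in KO day 2. KO day 1 held 601 CPM in the library labelled replicate 1 and 1086 CPM in replicate 2. Every cultured library lay far above every monocyte library, and most of the rise was already present at day 1. The log2 change against monocytes was 9.12 ± 0.58 (SE; edgeR adjusted p = 2.77e-05) at WT day 1 and 8.88 ± 0.57 (adjusted p = 1.80e-05) at WT day 2. In KO cells it was 8.38 ± 0.56 (adjusted p = 4.67e-05) at day 1 and 9.43 ± 0.58 (adjusted p = 1.84e-05) at day 2. Between day 1 and day 2 neither genotype passed, with -0.24 ± 0.40 in WT and 1.05 ± 0.40 in KO (edgeR adjusted p = 0.778 and 0.207), while DESeq2 called the KO value at 1.15 (adjusted p = 0.0467). The 4 calls against monocytes held in all alternatives run.

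Itgam and Itgal encode the other measured partners of beta 2, CD11b (chr7:128062640-128118491, plus strand) and CD11a (chr7:127296260-127335138, plus strand). Itgam stood at 195 and 134 CPM in WT monocytes, 241 and 212 CPM in WT day 1, and 106 and 77.2 CPM in WT day 2. The KO libraries held 197 and 177 CPM in monocytes, 393 (the library labelled replicate 1) and 183 CPM at day 1 and then 133 and 160.3 CPM at day 2. No Itgam comparison passed, the nearest being WT day 2 against WT day 1 at -1.31 ± 0.37 (edgeR adjusted p = 0.0554). That value passed with the experiments as a block (-1.32, adjusted p = 0.0137), in DESeq2 (adjusted p = 0.0141) and without both libraries that stood apart (adjusted p = 0.00525), and without the latter so did WT day 2 against monocytes (-1.15, adjusted p = 0.0164). Itgam is undercounted here: 3450 of its 5024 exon bases are shared with the same-strand gene Gm49368, and reads there belong to neither. Gm49368 itself held at most 4 reads per library, and adding it to Itgam changed no call.

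Itgal stood at 517 and 296 CPM in WT monocytes, 280.2 and 158 CPM in WT day 1, and 199.96 and 291 CPM in WT day 2. In KO libraries it stood at 532 and 562 CPM in monocytes, 263 and 159.7 CPM at day 1 and then 348 and 603 CPM at day 2. The day 1 libraries of both genotypes lay below their monocytes, and the day 2 libraries of KO overlapped theirs. The log2 change at day 1 was -0.89 ± 0.43 in WT (edgeR adjusted p = 0.163) and -1.37 ± 0.43 in KO (adjusted p = 0.0593). With the experiments as a block both passed (-0.89 with adjusted p = 0.0319, and -1.45 with adjusted p = 0.00455), as did KO day 2 against KO day 1 (1.16, adjusted p = 0.0309). Without both libraries that stood apart, Itgal also passed at KO day 1 (-1.85, adjusted p = 0.0233).

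Itgb2 encodes CD18, the shared beta 2 chain (chr10:77530252-77565708, plus strand). WT libraries held 1034 and 1293 CPM in monocytes, 893 and 729 CPM at day 1 and then 773 and 424 CPM at day 2. KO libraries held 990.0 and 1171 CPM in monocytes, 900.3 and 719.8 CPM at day 1 and then 1046 and 770.5 CPM at day 2. All WT cultured libraries lay below the WT monocytes, but no Itgb2 comparison passed, and the WT day 2 value of -0.96 ± 0.35 had an edgeR adjusted p of 0.0711. It passed in the block fit (-1.02, adjusted p = 0.015) and in DESeq2 (-0.95, adjusted p = 0.0235).

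**Figure D3:**
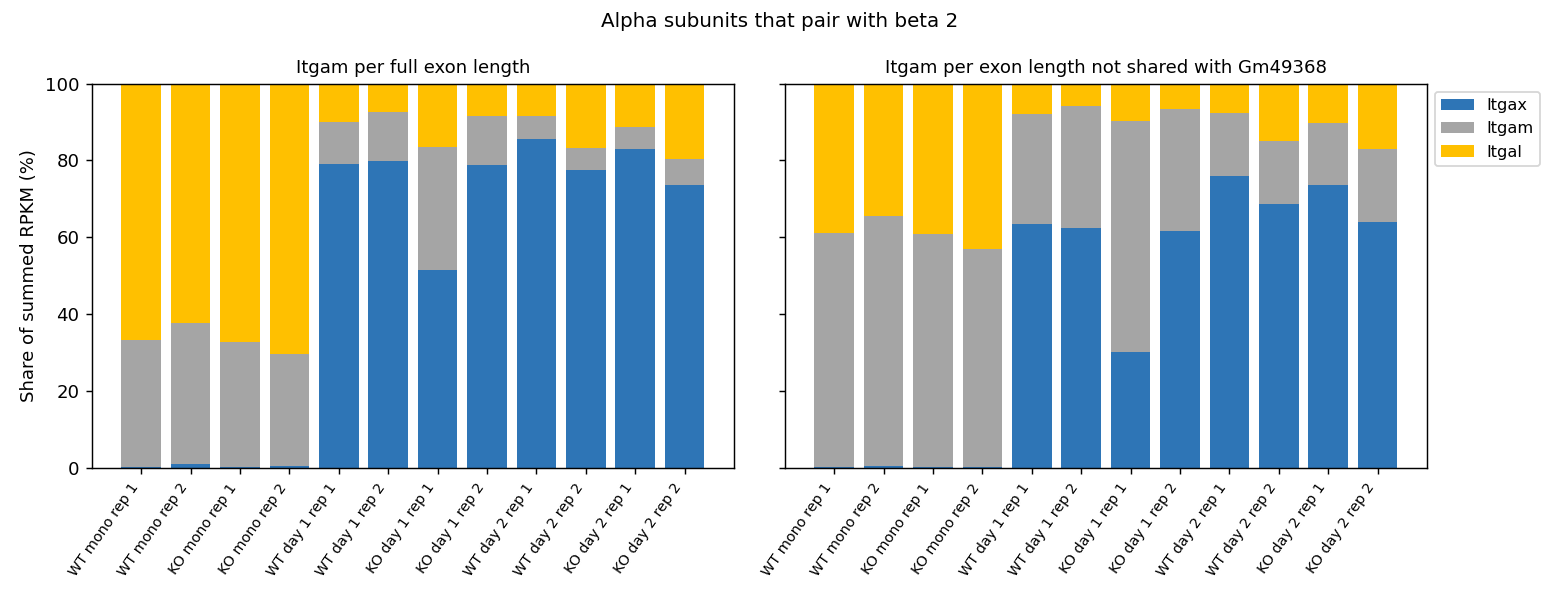
Share of each alpha chain gene in the summed RPKM of Itgax, Itgam and Itgal in every library, in percent. On the left Itgam is divided by its full exon length, on the right by the exon length that Gm49368 does not share. Itgax takes under 1% in all 4 monocyte libraries and between 51.4% and 85.7% of the bar in cultured libraries on the left, or between 30.2% and 75.9% on the right.

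Levels of different genes were compared as RPKM, which divides the CPM by exon length in kilobases. In WT monocytes Itgb2 (381 ± 60.0 RPKM, SD, n = 2) and Itgb7 (331 ± 22.6) ranked highest and overlapped, and Itgb1 (76.0 ± 2.66) and Itgal (61.9 ± 23.8) came next. At WT day 1 Itgax (302 ± 55.6) and Itgb2 (266 ± 37.9) ranked highest and did not differ beyond their spread. At WT day 2 Itgax (256 ± 72.1), Itgb1 (212 ± 16.5) and Itgb2 (196 ± 80.8) overlapped. Itgax made up 0.646% ± 0.416 of the summed RPKM of the beta 2 alpha chains in WT monocytes, 79.4% ± 0.563 at WT day 1 and 81.6% ± 5.78 at WT day 2. In KO libraries the shares were 0.433% ± 0.177, 65.1% ± 19.4 and 78.2% ± 6.61, with 51.4% in the library labelled KO day 1 replicate 1 and 78.8% in its partner. Dividing Itgam by the 1574 exon bases it does not share raised it from 32.7 to 104 RPKM in WT monocytes and lowered the Itgax share to 62.9% at WT day 1 and 72.3% at WT day 2. On that length Itgam, not Itgal, was the leading beta 2 alpha chain in all 4 monocyte libraries (56.6% to 65.0%). It also led in the library labelled KO day 1 replicate 1, at 60.2% against 30.2% for Itgax. The summed alpha chains amounted to 0.171 to 0.371 times Itgb2 in monocytes and to 0.826 to 1.91 times Itgb2 in culture on the full length, and to 0.308 to 0.636 and 1.41 to 2.15 times on the length not shared.

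Itgb7 (ENSMUSG00000001281.9, chr15:102215995-102231944, minus strand) encodes the beta 7 chain of the gut-homing and E-cadherin-binding integrins. It stood at 873 and 961 CPM in WT monocytes and at 815 and 856 CPM in KO monocytes. In culture WT libraries held 33.3 and 11.3 CPM at day 1 and then 40.0 and 26.3 CPM at day 2. KO libraries held 75.3 CPM in the library labelled KO day 1 replicate 1, 17.9 CPM in KO day 1 replicate 2, and 54.8 and 33.6 CPM at day 2. All monocyte values lay far above all cultured values. Itgb7 fell by 5.36 ± 0.74 on the log2 scale at WT day 1 (edgeR adjusted p = 0.00107) and fell by 4.79 ± 0.72 at WT day 2 (adjusted p = 0.00127). In KO cells it fell by 4.17 ± 0.70 at day 1 (adjusted p = 0.00405) and fell by 4.24 ± 0.71 at day 2 (adjusted p = 0.00279). All 4 calls held in every alternative run. Per length, Itgb7 stood at 4.25 and 4.46 times Itgb1 in WT monocytes and at 0.0424 to 0.136 times Itgb1 in WT culture.

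Itgae encodes the CD103 alpha chain (ENSMUSG00000005947.11, chr11:73090583-73147446, plus strand). WT monocytes held 1 read in each library and KO monocytes 0, which allows up to 0.107 CPM over the KO group (3 counts). At day 1 it stood at 9.41 and 4.08 CPM in WT, at 0.779 CPM (9 reads) in the library labelled KO day 1 replicate 1 and at 4.21 CPM in KO day 1 replicate 2. At day 2 it stood at 31.1 and 114 CPM in WT and at 91.0 and 275 CPM in KO. No group of one stage overlapped the same genotype's group of another stage, and within day 2 replicate 2 was the higher library in both genotypes. The WT day 1 reads were 75.8 times those of WT monocytes at equal depth (95% exact interval from counting, 20.7 to 631) and the WT day 2 reads 799 times (221 to 6602). Against the KO monocyte floor, the KO day 1 mean was at least 23.4-fold higher, at 7.30-fold in the library labelled replicate 1 and 39.5-fold in replicate 2. The KO day 2 mean was at least 1715-fold higher, at 853-fold and 2576-fold in its libraries. Intervals and floors cover counting error alone. The edgeR adjusted p was 0.0127 at WT day 1, 0.00118 at WT day 2, 0.0267 at KO day 1 and 0.000619 at KO day 2.

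The day 2 calls of Itgae against monocytes held in every alternative run, and the day 1 calls did not. Leaving out WT monocytes replicate 1 or 2 gave an edgeR adjusted p of 0.0611 or 0.0574 at WT day 1. Leaving out WT day 1 replicate 1 gave 0.0635, and dropping the 2 libraries that stood apart gave 0.119. At KO day 1 it was 0.121 and 0.132 without KO monocytes replicate 1 or 2, 0.202 without KO day 1 replicate 2 and 0.0731 without both libraries that stood apart. Reads of both strands together gave 3.13 with adjusted p = 0.11 there. From day 1 to day 2, Itgae rose by 3.43 ± 0.87 on the log2 scale in WT (edgeR adjusted p = 0.0413) and by 6.14 ± 0.99 in KO (adjusted p = 0.0176). The WT call was lost without WT day 1 replicate 1 (0.139), WT day 1 replicate 2 (0.246), WT day 2 replicate 2 (2.19, 0.237), KO monocytes replicate 1 (0.0536), KO monocytes replicate 2 (0.0553), both libraries that stood apart (0.0759), and with both strands (0.0618). The KO call was lost without the library labelled KO day 1 replicate 1 (0.0527), without both libraries that stood apart (0.101) and with the compared groups alone (0.107). T cells can also carry CD103, and their 7 markers summed to at most 4.67 CPM in any library, with Cd3e at most 0.167 CPM. Ncr1 of NK cells was at 0 in all 12 libraries, and Clec9a of CD103-bearing conventional dendritic cells was at most 2.17 CPM. Batf3, a factor those cells need, stood at 3.21 to 8.96 CPM in monocytes and at 57.3 to 92.1 CPM at day 2. At day 1 Batf3 stood at 82.8 and 135 CPM in WT and at 125 CPM in KO day 1 replicate 2. The library labelled KO day 1 replicate 1 held 10.6 CPM of it. At day 2 Batf3 was lower in KO than in WT in both experiments, whereas Itgae was higher. The part of Batf3 in the Itgae values was not tested.

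CD103 pairs with beta 7, whose gene moved the other way. Per length, Itgae amounted to 5.31e-05 and 6.63e-05 times Itgb7 in WT monocytes, to 0.171 and 0.218 times at WT day 1, and to 0.471 and 2.63 times at WT day 2. In KO day 2 it amounted to 1.00 and 4.95 times Itgb7.

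Itga4 encodes CD49d, which pairs with beta 1 or beta 7 (chr2:79255426-79333123, plus strand). It stood at 625 and 403 CPM in WT monocytes, 87.6 and 81.3 CPM at WT day 1, and 268 and 119.9 CPM at WT day 2. KO libraries held 566 and 365 CPM in monocytes, 195 (the library labelled replicate 1) and 77.7 CPM at day 1 and then 148 and 26.4 CPM at day 2. All cultured libraries lay below all monocyte libraries. Itga4 fell by 2.60 ± 0.74 on the log2 scale at WT day 1 (edgeR adjusted p = 0.0307) and fell by 2.42 ± 0.74 at KO day 2 (adjusted p = 0.0453). WT day 2 at -1.41 ± 0.71 and KO day 1 at -1.77 ± 0.72 did not pass (edgeR adjusted p = 0.175 and 0.128), but did with the experiments as a block (adjusted p = 0.0118 and 0.00525). The WT day 1 call was lost on leaving out either WT day 1 library (0.134 and 0.147), WT monocytes replicate 1 (0.0737) or both libraries that stood apart (0.071). The KO day 2 call was lost without KO monocytes replicate 1 (0.178), KO monocytes replicate 2 (0.0984), KO day 2 replicate 2 (0.173), either WT day 1 library (0.0641 and 0.0631) or both libraries that stood apart (0.069), and with the compared groups alone (0.0811).

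Itgb1 encodes CD29, the beta 1 chain of most matrix-binding integrins (chr8:128685654-128733200, plus strand). It stood at 302 and 318 CPM in WT monocytes, 361 and 391 CPM at WT day 1, and 819 and 914 CPM at WT day 2. KO libraries held 324 and 330.3 CPM in monocytes, 348 (the library labelled replicate 1) and 415 CPM at day 1 and then 515 and 459 CPM at day 2. The WT day 2 libraries were the highest of all 12. Itgb1 rose by 1.48 ± 0.25 on the log2 scale at WT day 2 against monocytes (edgeR adjusted p = 0.00228) and by 1.20 ± 0.25 against WT day 1 (adjusted p = 0.0188). KO day 2 against KO monocytes was 0.57 ± 0.25 (edgeR adjusted p = 0.136), which passed in DESeq2 (0.62, adjusted p = 0.0108). The first call was lost with the compared groups alone (adjusted p = 0.0573). The day 2 against day 1 call was lost without any 1 of its 4 libraries: WT day 1 replicate 1 (0.124) or 2 (0.114), or WT day 2 replicate 1 (0.0795) or 2 (0.131).

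Itga2b and Itgb3 encode CD41 and CD61, the chains of the platelet fibrinogen receptor, and CD61 also pairs with the alpha V chain outside platelets. Itgb3 (ENSMUSG00000020689.4, chr11:104608000-104670476, plus strand) stood at 82.4 and 40.4 CPM in WT monocytes, 5.28 and 3.26 CPM at WT day 1, and 60.9 and 25.1 CPM at WT day 2. KO libraries held 53.5 and 44.8 CPM in monocytes, 1.12 (the library labelled replicate 1) and 0.547 CPM at day 1 and then 62.3 and 40.2 CPM at day 2. The day 1 libraries of both genotypes lay below all the others, and the day 2 libraries overlapped the monocytes. Itgb3 fell by 3.84 ± 0.56 on the log2 scale at WT day 1 (edgeR adjusted p = 0.00132) and fell by 5.91 ± 0.64 at KO day 1 (adjusted p = 0.000432). From day 1 to day 2 it rose by 3.33 ± 0.55 in WT (edgeR adjusted p = 0.00737) and by 5.97 ± 0.64 in KO (adjusted p = 0.00163). Day 2 against monocytes gave -0.51 ± 0.49 in WT and 0.06 ± 0.49 in KO (edgeR adjusted p = 0.478 and 0.953). The WT day 2 against day 1 call was lost without WT day 1 replicate 1 (0.0505) or 2 (0.0814), and the other 3 calls held in every alternative run.

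Itga2b (chr11:102453297-102470122, minus strand) was low throughout, at 4.75 and 7.80 CPM in WT monocytes (62 and 74 reads), 1.499 and 1.63 CPM in KO monocytes (21 and 23 reads), and between 0.248 and 3.60 CPM in culture. It fell by 3.53 ± 0.89 on the log2 scale at WT day 1 (edgeR adjusted p = 0.0184), where the libraries held 3 and 10 reads. That call did not survive leaving out WT monocytes replicate 2 (0.054) or WT day 1 replicate 1 (-2.93, 0.115), or fitting the compared groups alone (0.0678). KO day 1 at -0.75 ± 0.82 did not pass (edgeR adjusted p = 0.591), and WT day 2 at -2.29 ± 0.84 (0.0736) passed in DESeq2 (adjusted p = 0.0252). The 10 megakaryocyte and platelet markers summed to 13.1 and 13.7 CPM in WT monocytes and to 1.78 and 5.81 CPM in KO monocytes, so they moved with Itga2b between these groups. In culture they summed to between 17.4 and 111 CPM (most of it Pf4 and Ppbp), where KO day 2 averaged 2.55 CPM of Itga2b against 1.56 CPM in KO monocytes. Of their defining members, Gp1ba, Gp9 and Gp6 were at 0 in 8, 8 and 10 of the 12 libraries and never above 1.15 CPM. Their part in the Itga2b and Itgb3 values was not tested.

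Whether loss of Nr4a3 altered the integrin genes was asked at each stage. Neither the edgeR nor the DESeq2 fit used for this paired the KO and WT libraries of an experiment. Their errors therefore also hold differences between experiments. With the experiments as a block, edgeR passed 0 of the 14034 genes between KO and WT in monocytes and 0 at day 1. At day 2 the block fit passed 35 of the 14034 (0.249%). None of the 10 passed between KO and WT in monocytes, at day 1 or at day 2 by edgeR without the block, against 0.00%, 0.00% and 0.0998% of all genes. At an unadjusted p under 0.05 there were 1 (Itga2b), 1 (Itgb3) and 2 (Itgb1 and Itgal) of the 10. DESeq2 called 0, 0 and 1 (Itgb1) of the 10. Over all genes 557, 252 and 444 had an unadjusted p under 0.05, and DESeq2 called 3, 3 and 90. The differences between genotypes in the response to culture also gave 0 calls by edgeR and by DESeq2, against 0.00% of all genes at day 1 and 0.0285% at day 2. At an unadjusted p under 0.05 these held 2 of the 10 at day 1 (Itga2b and Itgb3) and 2 at day 2 (Itgb1 and Itga2b), against 400.0 and 478 of the 14034 genes.

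In monocytes the KO libraries lay above both WT libraries for Itgal and Itgb1 and below them for Itgae, Itgb7 and Itga2b, with the other 5 genes overlapping. The 2 groups did not overlap for 24.2% of all genes tested. The fitted differences of 8 of the 10 genes lay between -0.32 and 0.43 on the log2 scale. Itga2b was at -1.99 ± 0.82 (SE; edgeR unadjusted p = 0.0341), and within the experiments KO held 0.316 and 0.209 times the WT level. For Itgae, with 2 reads in WT and 0 in KO, no difference was detectable at this depth.

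At day 1 Itgax and Itgb3 were lower in both KO libraries than in both WT libraries, and the other 8 genes overlapped. Over all genes tested 19.4% did not overlap. Itgax in KO was 0.367 and 0.860 times the WT level of the same experiment, the first from the library labelled KO day 1 replicate 1, with a fitted difference of -0.78 ± 0.40 (edgeR unadjusted p = 0.0792). Itgb3 in KO was 0.213 and 0.168 times the WT level, with a fitted difference of -2.39 ± 0.60 (edgeR unadjusted p = 0.00236). It passed at -2.37 (edgeR adjusted p = 0.000261) when no filter on low counts was used, and it rests on 13 and 10 reads in KO against 64 and 40 in WT. In the same pair that held the lower Itgax, Itgae stood at 0.0828, Itga4 at 2.23 and Itgb7 at 2.26 times WT, whereas the other pair gave 1.03, 0.956 and 1.58.

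**Figure D4:**
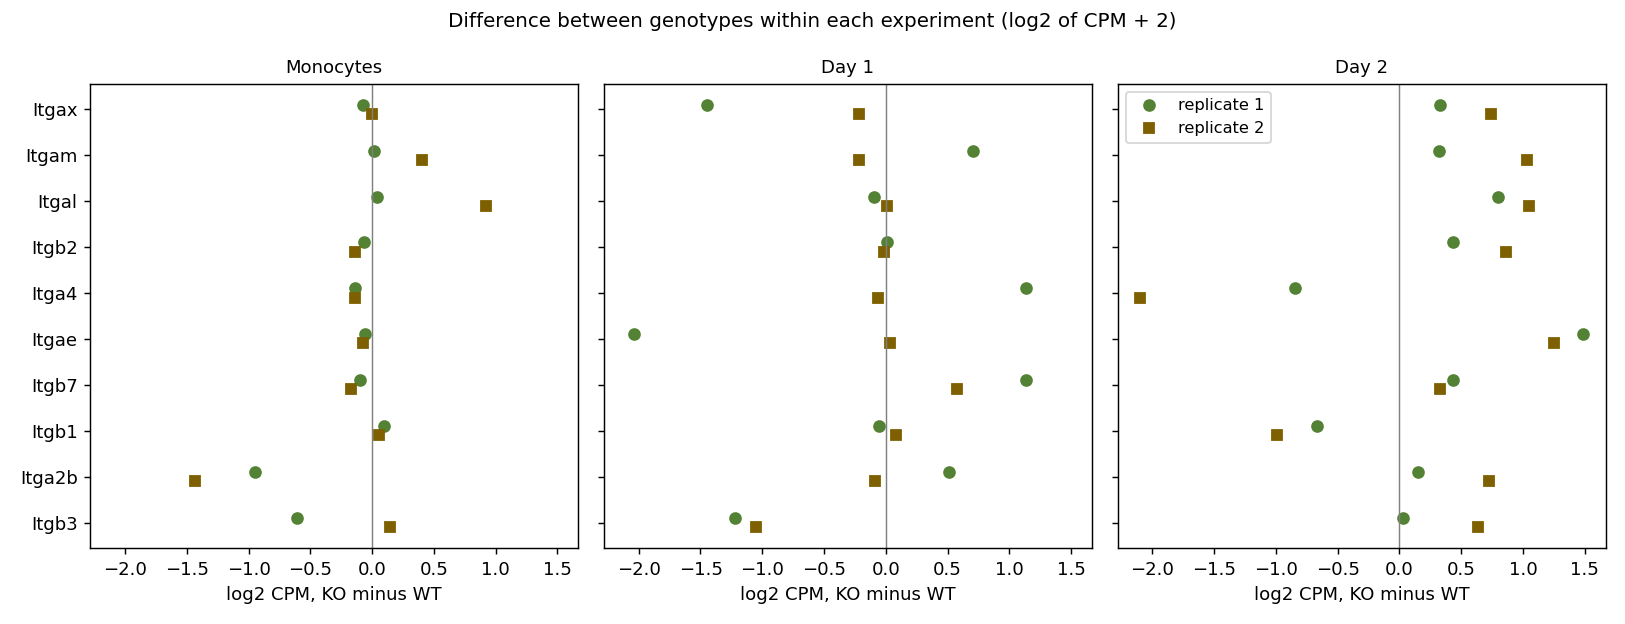
Difference between the KO and WT library of the same experiment for each integrin gene and stage, as log2 of CPM plus 2, with circles for replicate 1 and squares for replicate 2. At day 2, 8 of the 10 genes lie to the right in both experiments, and Itga4 and Itgb1 to the left in both. At day 1 the circles come from the library labelled KO day 1 replicate 1.

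At day 2 all 10 genes had the same direction in both experiments, 8 higher in KO and Itga4 and Itgb1 lower, none passing by edgeR. Over all genes tested 67.9% had the same direction in both, and 34.6% were higher in both. Groups did not overlap for 5 genes: Itgax, Itgam, Itgal and Itga2b were higher in KO and Itgb1 was lower, against 38.3% of all genes without overlap. Itgb1 in KO was 0.629 and 0.502 times the WT level, a fitted difference of -0.83 ± 0.25 (edgeR unadjusted p = 0.00672, adjusted p = 0.688), which DESeq2 called at an adjusted p of 0.0076. Itgal in KO was 1.74 and 2.07 times the WT level (0.95 ± 0.43, edgeR unadjusted p = 0.0488). Itgae in KO was 2.92 and 2.40 times the WT level of the same experiment, yet the WT libraries (31.1 and 114 CPM) and KO libraries (91.0 and 275 CPM) overlapped, and the fitted difference of 1.33 ± 0.79 did not pass (edgeR unadjusted p = 0.124). Itga4 in KO was 0.553 and 0.220 times the WT level (-1.16 ± 0.71, edgeR unadjusted p = 0.133). The 8 basophil and mast cell markers summed to 79.6 and 83.5 CPM in KO day 2 against 39.8 and 49.4 CPM in WT day 2, with 5 of the 8 higher in KO in both experiments. The eosinophil markers summed to 32.8 and 20.3 CPM in KO against 18.3 and 5.31 CPM in WT, and the neutrophil markers to 924 and 1734 CPM against 397 and 1208 CPM. All 4 eosinophil and 10 neutrophil markers, 7 of 8 monocyte markers and 5 of 13 dendritic cell markers were higher in KO in both experiments. The other 8 dendritic cell markers were lower in both, among them Ccr7 at 98.0 and 9.07 CPM in KO against 852 and 738 CPM in WT. Their part in the integrin differences was not tested.

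Genes whose levels were most like those of Itgax over the 12 libraries, among 9533 genes compared by Pearson's r of log2 CPM, were Creb5 (0.996), Sema6d (0.995), Gpr85 (0.994), Adam8 (0.993) and Mmp12 (0.993). Sema6d went from at most 0.283 CPM in the mean of either monocyte group to 159 to 385 CPM in the cultured groups. For Itgae the most alike were Ppm1j (0.991), Ramp3 (0.986), Plekhf1 (0.981), Slc1a4 (0.981) and Esyt3 (0.979). Ramp3, which encodes a receptor activity modifying protein, stood at 0 in both monocyte groups, at 10.7 CPM in the mean of WT day 1 and at 192 CPM in the mean of WT day 2. These r values are descriptions over libraries that share groups and experiments.

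The 10 genes held between 92.8% and 95.6% of the summed RPKM of all 26 integrin subunit genes in each group. Of the other 16 subunit genes, 9 were tested and the other 7 had at most 33 reads over all libraries. Itga5, the fibronectin receptor alpha chain, was the highest of them in each group (18.2 to 27.0 RPKM) and passed in no culture comparison. At WT day 1, 0 of 9 rose and 2 fell (Itga8 at -3.41 and Itgb5 at -3.56), with a median log2 change of 0.00 over the 9. Over all genes 21.5% passed in either direction at WT day 1 and 22.6% at WT day 2. At WT day 2 Itgav, the alpha chain that pairs with CD61, rose by 1.24 ± 0.38 on the log2 scale (edgeR adjusted p = 0.039) and Itga8 fell, from a mean of 14.9 CPM in WT monocytes to 0.178 CPM. In KO cells Itga10 and Itga1 rose and Itga8 fell at day 1, against 13.8% of all genes. At KO day 2 Itga10 rose and Itga8 fell, against 17.5% of all genes. Itga10 had 0 reads in KO monocytes and averaged 0.972 CPM over the libraries.

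Of 22 listed genes that switch integrins on, 19 were tested. At WT day 1 0 of the 19 rose and 4 fell (Rasgrp2, Cib1, Fyb and Sharpin), against 21.5% of all genes in either direction. Rasgrp2, which encodes the Rap1 activator CalDAG-GEFI, went from a mean of 201 CPM in WT monocytes to 11.4 CPM at WT day 1 and 4.08 CPM at WT day 2. Its log2 change at day 1 and day 2 was -4.13 ± 0.45 and -5.61 ± 0.49 in WT (edgeR adjusted p = 0.000338 and 5.53e-05), and -3.33 ± 0.43 and -5.25 ± 0.48 in KO (edgeR adjusted p = 0.00117 and 9.05e-05). At WT day 2, 1 of 19 rose (Cyth1) and 3 fell (Rasgrp2, Rap1a and Fyb), against 22.6% of all genes. In KO cells 0 rose at either day, while 2 fell at day 1 (Rasgrp2 and the Rap1 effector Apbb1ip), against 13.8% of all genes. At KO day 2 1 fell, against 17.5% of all genes. Talin (Tln1) and filamin (Flna), the most abundant that did not pass, were at -0.73 ± 0.47 and -0.64 ± 0.36 at WT day 1. The median over the 19 was -0.64 at WT day 1, -0.59 at WT day 2, -0.66 at KO day 1 and -0.69 at KO day 2.

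Of 29 genes of integrin adhesion signalling, 25 were tested. At WT day 1 2 rose and 7 fell, against 21.5% of all genes in either direction. At WT day 2 3 rose and 10 fell, against 22.6% of all genes, and the medians at these days were -0.54 and -0.73. In KO cells 2 rose and 2 fell at day 1, against 13.8% of all genes. At KO day 2 3 rose and 8 fell, against 17.5% of all genes, and the KO medians were -0.45 and -0.66. Actn1, which encodes the actin crosslinker alpha-actinin, rose from a mean of 4.71 CPM in WT monocytes to 76.3 CPM at WT day 1 and 482 CPM at WT day 2. It passed at both days, with a log2 change of 6.66 ± 0.54 at WT day 2 (edgeR adjusted p = 4.28e-05). Lyn, a Src-family kinase downstream of beta 2 integrins, fell by 1.17 ± 0.25 on the log2 scale at WT day 1 and fell by 2.18 ± 0.26 at WT day 2 (edgeR adjusted p = 0.00874 and 0.000307). The adaptor Tyrobp (-3.03) and the kinase Fgr (-1.92) also fell at WT day 2. The kinase gene Src passed as higher in KO cells at day 1 and day 2 (edgeR adjusted p = 0.011 and 0.00298). Its KO means were 0.214 CPM (monocytes), 13.3 ± 13.9 CPM (SD, day 1) and 41.4 ± 24.6 CPM (day 2), with wide spread in culture. Its WT means also went up, being 0.560 CPM (monocytes), 5.77 ± 2.91 CPM (day 1) and 28.0 ± 16.9 CPM (day 2).

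Of 22 genes of integrin ligands, 14 were tested. At WT day 1 2 rose (Icam1 and Cdh1) and 5 fell, among them Icam2 and Thy1, against 21.5% of all genes in either direction. At WT day 2 5 rose and 2 fell, against 22.6% of all genes. In KO cells 3 rose and 1 fell at day 1, against 13.8% of all genes, and 6 rose and 2 fell at day 2, against 17.5%. The medians were -1.40 and 1.21 in WT and -0.11 and 2.75 in KO. Cdh1 encodes E-cadherin, the ligand of CD103. It had group means of 0.708 CPM in WT monocytes, 263 ± 246 CPM (SD) at WT day 1 and 160.4 ± 180 CPM at WT day 2. Its log2 change in WT was 8.46 ± 1.65 at day 1 and 7.75 ± 1.61 at day 2 (edgeR adjusted p = 0.00582 and 0.00686). Icam1, which encodes the ligand of CD11a and CD11b, rose from 44.0 CPM in the mean of WT monocytes to 222 CPM at WT day 1 and 313 CPM at WT day 2 (2.33 ± 0.33 and 2.83 ± 0.34, edgeR adjusted p = 0.00127 and 0.000351). Icam2, another CD11a ligand, fell, with log2 changes of -2.55 ± 0.46 and -3.74 ± 0.49 (edgeR adjusted p = 0.00383 and 0.000582).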

How the data were processed

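Poly(A) RNA was sequenced with a stranded kit, per the labels' protocols. Trimmomatic 0.35, STAR 2.5.1b and build GRCm38 are named in the submitters' processing notes. Their annotation release was not given in the sources used here. What the authors deposited are raw read counts per gene, 1 file per library, not normalized by the authors, and the reverse-strand column was used. Lines that name no gene held 16.2% to 24.4% of reads and were left out. Symbols, coordinates and exon lengths came from GENCODE M21 (GRCm38), with 47224 of 47643 IDs matched.

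edgeR 4.0.16 in R 4.3.3 was fitted to all 12 libraries (TMM, filterByExpr, 1 mean per group, robust quasi-likelihood, 6 residual degrees of freedom, 11 contrasts, two-sided). SE is the absolute log2 change divided by the root of F. The script was tested on simulated data. Standard errors measure the spread between libraries from separate experiments. No replicate pair was within sampling noise (chi-square per degree of freedom of at least 34.7 over genes with at least 20 summed reads). Dates in the deposited file names pair same-numbered WT and KO libraries of a stage. Over genes, the deviations of such pairs correlated at 0.236 (monocytes), 0.194 (day 1) and 0.657 (day 2). Alternatives were another scaling, no filter, DESeq2 1.42.0, compared groups only, an experiment block, unstranded counts and libraries left out.

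The genes and lists were chosen with earlier results of these data known. All 10 integrin genes are named. From each list up to 4 genes with the smallest adjusted p and up to 2 abundant genes that did not pass could be named, and the 5 most correlated genes for Itgax and Itgae, among genes with a mean of at least 5 CPM (prior count of 2).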

Additional observations from a re-analysis of the deposited data

How the results depend on the processing

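Of 23 calls of single integrin genes, 13 kept direction and side of the threshold in every alternative run: Itgax and Itgb7 against monocytes in both genotypes and at both days, Itgae at day 2 against monocytes in both genotypes, Itgb3 at day 1 against monocytes in both genotypes, and Itgb3 at KO day 2 against KO day 1. The other 10 were lost in at least 1 alternative, 14 of the 87 values not called gained a call in at least 1, and 0 calls changed sign. Leaving out 1 library at a time gave between 3 and 6 integrin genes called at WT day 1 against monocytes, between 0 and 4 at WT day 2 against WT day 1, between 3 and 5 at KO day 1 and between 3 and 4 at KO day 2 against monocytes, between 1 and 2 at KO day 2 against KO day 1, and 4 in each case at WT day 2 against monocytes. For WT day 2 against WT day 1 the count was 0 without either WT day 1 library and 1 without WT day 2 replicate 2, where over all genes 1.20%, 1.15% and 1.79% passed. At WT day 1 it was 3 without WT day 1 replicate 1, and for KO day 2 against KO day 1 it was 1 without the library labelled KO day 1 replicate 1. In both of these fits with 1 library left out, a smaller share of all genes passed than in the main fit. Without a filter on low counts there were 5 calls for WT day 2 against WT day 1, against 9.36% of all genes. That setting gave 1 call for KO against WT at day 1, against 0.625% of all genes. DESeq2 gave 1 call for KO against WT at day 2, against 0.681% of all genes. For KO day 2 against KO day 1 there was 1 call with the compared groups only, against 0.160% of all genes. With the replicate block there were 7 calls at WT day 1, 6 at WT day 2 and 6 at KO day 1 against monocytes, 4 at WT day 2 against WT day 1 and 3 at KO day 2 against KO day 1, while over all genes 28.4%, 30.5%, 21.3%, 16.3% and 7.50% passed; the calls it added are given with their genes. Where a call changed without a cause in the alternative itself, such as fewer libraries or genes, the cause was not tested. The Itgam length without shared exons, an alternative chosen after seeing the data like the sum of Itgam and Gm49368, moved the Itgax share to 62.9% at WT day 1, 72.3% at WT day 2 and 68.9% at KO day 2. At KO day 1 it lowered the mean share from 65.1% to 45.9% ± 22.3 (SD), which is within the wide spread of that group. The Itgam share there was also 45.9%. Where leaving out a library left 1 in its group, the lone library was assumed to vary like the other groups. Depth limits Itgae in monocytes, Itga2b in all groups and Itgb3 at day 1.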
